A study of Mus musculus with 37 samples.

Results

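The extraembryonic ectoderm (EXE) and the visceral endoderm (VE) of the mouse embryo at embryonic day 6.5 were compared across all genes with the 3 EXE and the 4 VE poly(A) RNA-seq libraries of a series of 37. The libraries were chosen by their tissue label alone, and both genotypes were kept together. The series asks what loss of BAP1, a deubiquitinase of histone H2A, in the oocyte does to the oocyte and the embryo. Control embryos came from Bap1flox/flox eggs and a male of PWK, an inbred strain of wild-derived mice, and gave 1 EXE and 2 VE libraries. Maternal knockout embryos came from eggs of Gdf9-iCre, Bap1flox/flox females, in which iCre recombinase under the oocyte promoter Gdf9 had removed the floxed part of Bap1, and the same kind of male, and gave 2 EXE and 2 VE libraries. All embryos thus had a floxed-line mother and a PWK father, and the knockout embryos carried a wild-type paternal Bap1 allele. The labels give neither the number of embryos in a library nor how the tissues were taken apart, and they do not say that the numbered libraries came from separate embryos or litters, so p-values measure only the spread between these libraries. Values are FPKM, fragments scaled to transcript length and to the mapped fragments of the library, and library values below are given in the order EXE control, EXE knockout 1, EXE knockout 2 and VE control 1, VE control 2, VE knockout 1, VE knockout 2.

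The EXE is the trophoblast tissue that sits above the epiblast and gives rise to the chorion and much of the placenta. Its stem cells are kept proliferating by FGF signals from the epiblast, and it sends BMP4 back to pattern the embryo. The VE is the epithelium that surrounds both tissues and descends from the primitive endoderm. It takes up and digests maternal proteins, secretes lipoproteins and plasma carrier proteins before a liver exists, and at its anterior end secretes antagonists of WNT and NODAL that position the body axis.

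Elf5, an ETS factor of the trophoblast stem cell state, measured 135, 151 and 184 FPKM in EXE and 0.0224, 0, 0.381 and 0.238 FPKM in VE. Ttr, the thyroid hormone and retinol carrier transthyretin, measured 1.59, 0.102 and 0.0902 FPKM in EXE and 1015, 1785, 609 and 1165 FPKM in VE. The groups did not overlap for either gene, and the tissue labels matched these markers in all 7 libraries. Summed FPKM per library ranged from 628289 to 698777, and 10476 to 11166 genes reached 1 FPKM. FPKM do not keep read numbers, so the depth is unknown. Transcripts of the Y chromosome (Uty, Ddx3y, Eif2s3y and Kdm5d) were found in the EXE control, EXE knockout 2, VE control 1 and VE knockout 2 libraries, so both tissues had libraries with and without them. Bap1 (ENSMUSG00000021901.10, chromosome 14, 31251450 to 31259944, GRCm38) measured 21.8, 24.0 and 23.1 FPKM in EXE and 14.02, 15.6, 18.3 and 19.4 FPKM in VE. These ranges did not overlap, but the log2 difference of 0.39 ± 0.19 (SE) had a limma adjusted p of 0.135. With a paternal copy present, Bap1 does not check the genotype labels.

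Libraries differed in the markers of neighbouring tissues, which bears on the genes of those tissues below. Pou5f1, the pluripotency factor of the epiblast, measured 20.5, 0.127 and 13.8 FPKM in EXE against 427, 274, 694 and 595 FPKM in the 4 epiblast libraries of the same table (control 1, control 2, knockout 1, knockout 2), and Tdgf1, a NODAL co-receptor, measured 15.4, 0.284 and 11.4 FPKM in EXE. The EXE control and EXE knockout 2 libraries therefore held epiblast transcripts that EXE knockout 1 nearly lacked. Summed over the 10 epiblast markers, EXE libraries measured 467 to 592 FPKM, VE libraries 48.9 to 160.0 FPKM and epiblast libraries 1322 to 2018 FPKM. Most of the sum in EXE came from Utf1 and Pou3f1, which stood at 394 and 67.6 FPKM in EXE knockout 1 as well. Some VE transcripts were also highest in the EXE control, with 17.7 FPKM of Apoc2 against 1.28 and 0 FPKM in the knockout libraries. Others were lowest there, at low levels. The VE genes Srgn and Ihh measured 0.0134, 0.147 and 0.360 FPKM and 0.0592, 0.139 and 0.188 FPKM in EXE. Among VE libraries, VE knockout 1 had the highest levels of Plat, a parietal endoderm marker, at 3.83 FPKM, of the decidual prolactin Prl8a2 at 2.76 FPKM and of adult beta globin Hbb-bs at 15.6 FPKM. Hbb-bs was listed at 0 in the other 6 libraries. Col4a1, of the same parietal endoderm list, was highest in VE control 1, at 54.0 FPKM against 25.4 FPKM in VE knockout 1. The 10 parietal endoderm markers summed to 529 to 849 FPKM in VE and 62.1 to 93.8 FPKM in EXE. Sparc made up most of the sum in VE, and which cells it came from was not tested. The 11 decidual markers summed to 4.55 to 32.3 FPKM in VE and 1.88 to 3.04 FPKM in EXE. Cryab and Vim, which are not specific to decidua, made up 21.6 and 6.13 FPKM of the highest sum, in VE knockout 1. The markers of trophoblast giant cells and ectoplacental cone, Tpbpa and Prl2c2, were listed at 0 in all 7 libraries, and Prl3d1 was listed at 0 in EXE. The 10 genes of that list summed to 132 to 169.6 FPKM in EXE and 29.1 to 76.2 FPKM in VE, nearly all from Hand1 and Ascl2 in EXE and Plac1 in both tissues. The 11 blood genes summed to 0.0756 to 0.327 FPKM in EXE and 0.0341 to 45.6 FPKM in VE, highest in VE knockout 1. The streak and mesoderm markers summed to 11.3 to 15.1 FPKM in EXE and 18.4 to 48.8 FPKM in VE, with most of the VE sum from Mixl1. The part of these transcripts in the results was not tested beyond leaving out the libraries concerned.

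Across 12457 genes that reached 1 FPKM in at least 2 of the 7 libraries, 2345 (18.8%) were higher in EXE and 2002 (16.1%) higher in VE at a limma adjusted p under 0.05, with genotype as a factor. Changes of more than 4 units on the log2(FPKM + 1) scale were more often towards VE: 137 called genes (1.1%) were at least 4 units higher in VE and 60 (0.482%) at least 4 units higher in EXE. At 8 units the counts were 11 and 0. All 3 EXE libraries lay above all 4 VE libraries in 3028 genes (24.3%), and all 4 VE libraries above all 3 EXE libraries in 2267 (18.2%). The median log2 difference of all genes tested, EXE minus VE, was 0.17. The EXE control library mattered most to these counts. Without it, 1098 genes were higher in EXE and 1323 in VE, and with EXE knockout 1 as the only EXE library 340 and 863. The lone library was then assumed to vary like the VE libraries. No gene called both with and without those libraries changed direction. In bulk tissue, fewer cells of a type and less RNA per cell cannot be told apart. A gene at 0 in one tissue passes the filter only through the other, so counts of list members below describe the members that passed and do not stand for those that did not.

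**Figure D1:**
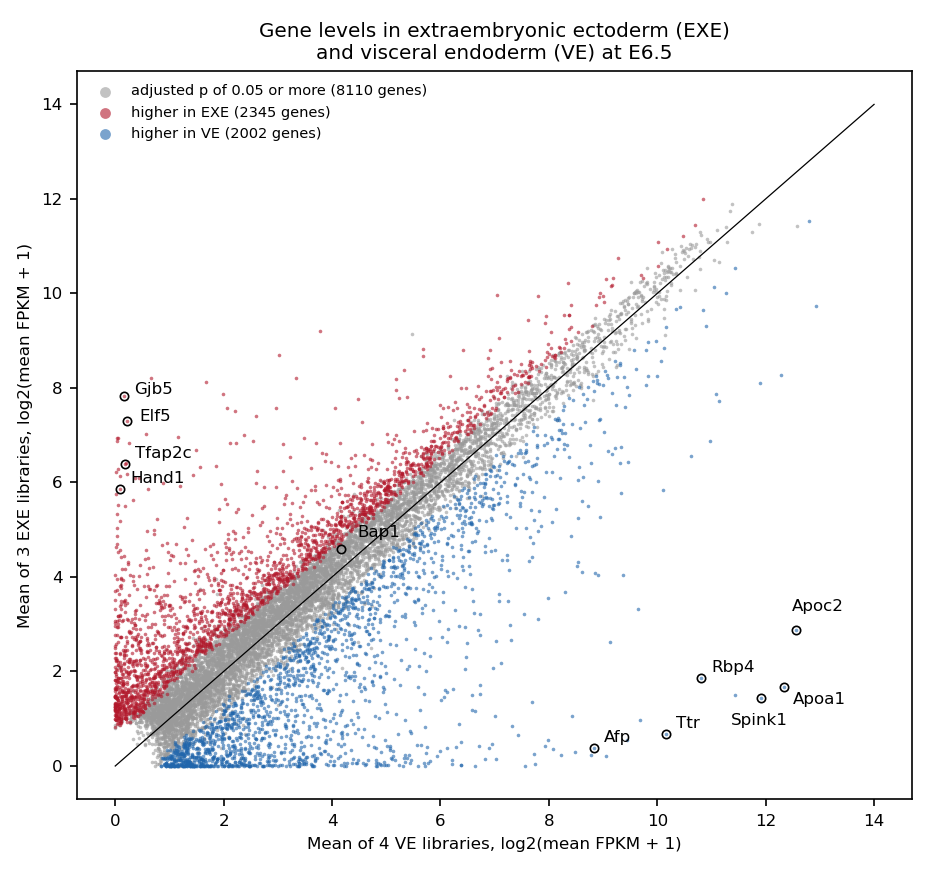
Mean level of each of the 12457 genes tested in the 4 VE libraries (x axis) and the 3 EXE libraries (y axis), both as log2(mean FPKM + 1), with red and blue points for genes called higher in EXE or VE and grey points for the rest. Among the genes labelled, Apoa1 and Spink1 lie farthest below the line of equal levels and Gjb5 and Elf5 farthest above it.

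The 10 genes farthest towards EXE included the transcription factor genes Elf5 and Tfap2c and the junction genes Gjb5, Cldn4 and Cldn3. Gjb5 (ENSMUSG00000042357.2, chromosome 4, 127354809 to 127358181) encodes the gap junction protein connexin 31.1. Gjb5 measured 257, 199 and 219 FPKM in EXE and 0, 0, 0.479 and 0 FPKM in VE, a log2 difference of 7.66 ± 0.24 (SE, adjusted p = 4.08e-08). It was listed at 0 in 3 of the VE libraries. The tight junction genes Cldn4 and Cldn3 are neighbours on chromosome 5 (Cldn4 134945119 to 134946934, Cldn3 134986214 to 134987472). Cldn4 measured 118, 131 and 118 FPKM in EXE and 0.140, 0, 0 and 0 FPKM in VE, and Cldn3 measured 126, 122 and 104 FPKM in EXE and 0.0576, 0.0538, 0 and 0 FPKM in VE. No EXE library had less than 104 FPKM of any of these 3 junction genes, and no VE library more than 0.479 FPKM. Elf5 (ENSMUSG00000027186.15, chromosome 2, 103411688 to 103450989) differed by 7.03 ± 0.21 (adjusted p = 3.88e-08), and Tfap2c, the AP-2 gamma factor of trophoblast and germ cells, with 87.9, 83.6 and 76.0 FPKM in EXE and 0.0726, 0.276, 0.0813 and 0.0745 FPKM in VE, by 6.23 ± 0.22 (adjusted p = 7.19e-08). Also among the first 10 were Bcat1, the cytosolic branched-chain aminotransferase, the calcium-binding S100a6, the G protein subunit Gng2 and the serine protease Prss50. Their mean levels in EXE were 122 ± 24.2, 113 ± 26.4, 84.3 ± 6.45 and 76.9 ± 20.4 FPKM (SD, n = 3), and their highest VE values 0.0525, 0.372, 0.397 and 0.06999 FPKM. Their log2 differences ran from 6.18 to 6.87. Bcat1 and Gng2 were also present in epiblast, where the 4 libraries measured 40.7, 75.2, 13.0 and 73.9 FPKM of Bcat1 and 54.0, 42.3, 46.6 and 36.4 FPKM of Gng2.

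Each of the 10 genes farthest towards VE differed by more than any of the 10 farthest towards EXE. Apoa1 (ENSMUSG00000032083.8, chromosome 9, 46228580 to 46230466), the main protein of high-density lipoprotein, measured 4.78, 0.804 and 0.908 FPKM in EXE and 5949, 4974, 5085 and 4786 FPKM in VE, a log2 difference of 10.78 ± 0.29 in favour of VE (SE, adjusted p = 3.88e-08). Spink1, a secreted trypsin inhibitor, measured 3.94, 0.803 and 0.389 FPKM in EXE and 2002, 7110.5, 2002 and 4227 FPKM in VE, a difference of 10.34 ± 0.46 (adjusted p = 2.81e-07). Apom, the carrier of sphingosine-1-phosphate, measured 4.93, 0.401 and 0.158 FPKM in EXE and 2935, 3279, 1903 and 2889 FPKM in VE, a difference of 10.12 ± 0.35 (adjusted p = 6.51e-08). In all 3 genes the EXE control stood above both EXE knockout libraries, and the groups were far apart, with no VE value of the 3 genes under 1903 FPKM and no EXE value over 4.93 FPKM. Apoc2, the activator of lipoprotein lipase, reached 3303, 11996, 3466 and 5413 FPKM in VE and differed by 10.25 ± 0.66. Its exons overlap another gene model over 79.5% of their length, so its own share of the signal is uncertain. The same holds for Apoa4, with 772, 693, 825 and 473 FPKM in VE, where 69.8% overlaps another model. Ttr differed by 9.36 ± 0.29 and the plasma retinol carrier Rbp4, with 4.87, 1.64 and 1.35 FPKM in EXE and 1958, 2429, 1455 and 1314 FPKM in VE, by 8.89 ± 0.20. Afp, the fetal albumin-like alpha-fetoprotein, measured 519, 384, 561 and 346 FPKM in VE and at most 0.579 FPKM in EXE. Its difference was 8.40 ± 0.24. The adaptor of endocytic receptors Dab2, with 939, 539, 1194 and 615 FPKM in VE, and the granule proteoglycan serglycin (Srgn), with 469.7, 209, 589 and 474 FPKM in VE, completed the first 10. They differed by 8.68 ± 0.34 and 8.55 ± 0.29. Adjusted p from limma for Apoc2, Apoa4, Ttr, Rbp4, Afp, Dab2 and Srgn ranged from 2.06e-08 to 2.80e-06.

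**Figure D2:**
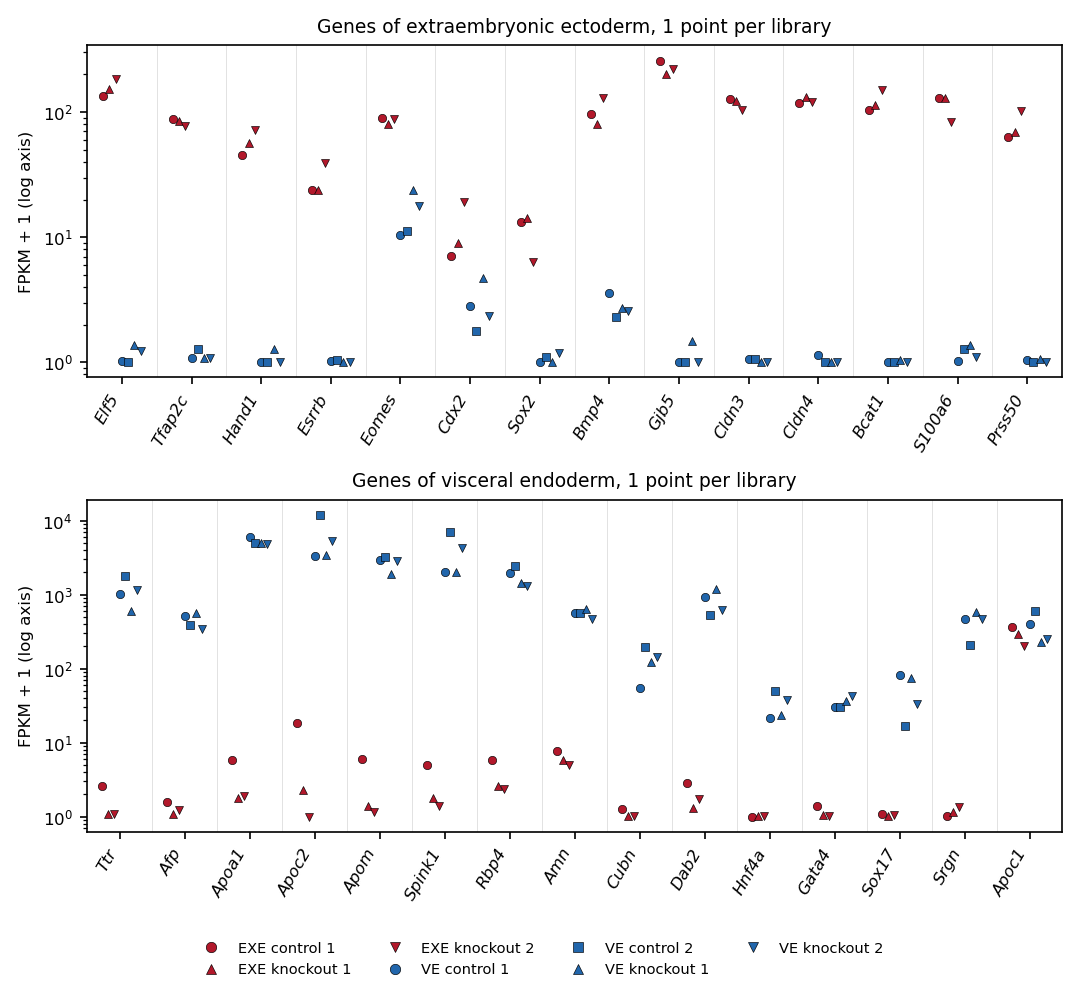
FPKM + 1 on a log axis in each of the 3 EXE (red) and 4 VE (blue) libraries, with a symbol for each genotype and replicate, for genes of EXE above and of VE below. Every VE library lies above every EXE library for Ttr and Apoa1, while the levels of Apoc1 at the right overlap, and the EXE control has the highest Apoc2 of the EXE libraries.

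RefSeq promoters (GRCm38.p6, 250 bases before to 50 after each start) were matched for 106 of the 137 genes called with 4 or more log2 units in favour of VE and for 47 of the 60 in favour of EXE, giving 134 and 65 promoters. Both strands were searched for 6 short motifs of factors whose genes were themselves higher in one tissue: Hnf4a and Gata4 in VE, and Tfap2c, the ETS factor genes Elf5 and Ets2, and Esrrb in EXE. Promoters of the VE genes held a median of 7 CpG dinucleotides and those of the EXE genes 13, against 21 for all genes tested and 7 for all RefSeq promoters. The sequence CAAAGT, found in HNF4 sites, was present on either strand in 23.1% of the VE set, 11.9% of promoters of tested genes and 14.4% of all promoters. For the GATA motif AGATAA the shares were 14.2%, 6.27% and 11.18%. In the EXE set these motifs were present in 6.15% and 3.08%. In the EXE set the AP-2 motif GCCNNNGGC was present in 21.5%, against 25.1% of tested and 16.6% of all promoters, and the ETS motif AGGAAG in 33.8%, against 32.8% and 35.4%. The VE set held them in 21.6% and 41.0%, so the EXE set did not hold more of either. The longer HNF4 motif CAAAGTCCA, which contains CAAAGT, was found in 1.49% of the VE set and 0.475% of all promoters, and the ESRRB motif TCAAGGTCA in no promoter of either set and in 0.423% of all promoters. No other motif contains another, the sets differ in CpG content, and a match is letters in a window, not a bound site. The promoters of 3 VE and 3 EXE genes with a match follow, 5′ to 3′ on the strand of the gene, with capitals for the motifs searched for the factors of that gene's tissue. Apoa4 lies at chr9:46240594-46240893, plus strand, and its capitals mark CAAAGT. Apoc2 lies at chr7:19677892-19678191, minus strand, also with CAAAGT. Dab2, by one of its promoters, lies at chr15:6299539-6299838, plus strand, with CAAAGT on the printed strand and, as the later capitals, AGATAA on the other strand. Gjb5 lies at chr4:127358115-127358414, minus strand, and Cldn3 at chr5:134985964-134986263, plus strand, both with GCCNNNGGC. Bmp4 lies at chr14:46390620-46390919, minus strand, with AGGAAG. Not marked are CAAAGT in the Gjb5 window and AGGAAG in the Apoc2 window, each a motif of the other tissue's factors.
Apoa4: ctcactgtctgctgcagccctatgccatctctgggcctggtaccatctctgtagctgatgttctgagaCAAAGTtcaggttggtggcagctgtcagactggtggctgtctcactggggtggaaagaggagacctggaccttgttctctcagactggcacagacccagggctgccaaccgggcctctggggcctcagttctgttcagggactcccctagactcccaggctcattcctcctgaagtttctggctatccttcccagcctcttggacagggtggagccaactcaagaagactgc
Apoc2: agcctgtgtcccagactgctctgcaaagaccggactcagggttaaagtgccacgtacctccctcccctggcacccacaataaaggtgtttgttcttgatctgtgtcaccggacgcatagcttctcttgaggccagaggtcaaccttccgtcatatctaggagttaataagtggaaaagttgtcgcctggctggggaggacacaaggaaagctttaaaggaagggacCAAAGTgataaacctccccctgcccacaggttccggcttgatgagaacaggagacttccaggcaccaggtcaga
Dab2: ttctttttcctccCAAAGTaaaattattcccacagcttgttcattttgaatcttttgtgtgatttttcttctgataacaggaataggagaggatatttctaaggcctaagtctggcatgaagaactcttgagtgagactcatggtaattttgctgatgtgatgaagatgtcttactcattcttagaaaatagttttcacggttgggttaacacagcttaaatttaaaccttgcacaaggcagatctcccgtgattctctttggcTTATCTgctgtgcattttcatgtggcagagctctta
Gjb5: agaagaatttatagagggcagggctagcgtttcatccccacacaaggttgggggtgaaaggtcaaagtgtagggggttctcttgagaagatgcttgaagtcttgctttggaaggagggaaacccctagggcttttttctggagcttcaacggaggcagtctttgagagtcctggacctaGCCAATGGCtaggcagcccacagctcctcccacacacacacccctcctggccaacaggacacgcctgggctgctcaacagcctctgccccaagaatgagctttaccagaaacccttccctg
Cldn3: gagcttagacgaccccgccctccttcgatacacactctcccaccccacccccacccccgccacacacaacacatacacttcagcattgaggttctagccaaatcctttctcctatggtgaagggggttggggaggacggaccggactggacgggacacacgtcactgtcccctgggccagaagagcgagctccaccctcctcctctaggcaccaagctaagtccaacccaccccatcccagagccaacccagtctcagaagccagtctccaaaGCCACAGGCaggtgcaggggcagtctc
Bmp4: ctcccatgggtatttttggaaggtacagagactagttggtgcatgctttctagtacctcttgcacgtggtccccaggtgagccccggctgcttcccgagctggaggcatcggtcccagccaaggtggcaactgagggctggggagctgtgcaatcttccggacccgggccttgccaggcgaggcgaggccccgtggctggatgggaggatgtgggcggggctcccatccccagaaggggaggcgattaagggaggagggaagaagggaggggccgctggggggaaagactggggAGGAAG

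Transcription factors of trophoblast stem cells stood higher in EXE with few exceptions. Of 20 listed factors 19 passed the filter, 17 were higher in EXE and 1 in VE, with a median log2 difference of 3.34 against 0.17 for all genes tested. Hand1, which drives trophoblast towards giant cells, measured 44.8, 55.4 and 71.4 FPKM in EXE and was listed at 0 in 3 VE libraries, with 0.273 FPKM in VE knockout 1. Ascl2, needed for the spongiotrophoblast of the placenta, measured 55.7, 56.5 and 59.96 FPKM in EXE and 0.451, 0.241, 1.22 and 0.203 FPKM in VE, a difference of 5.27 ± 0.27. The orphan receptor Esrrb, which maintains trophoblast stem cells, measured 22.8, 23.1 and 38.3 FPKM in EXE and at most 0.0403 FPKM in VE. For these 3 genes every EXE library stood over an order of magnitude above every VE library, whereas other stem cell factors had measurable levels in VE. Eomes, a T-box factor of both trophoblast and anterior VE, measured 89.2, 79.9 and 87.0 FPKM in EXE and 9.44, 10.2, 22.7 and 16.8 FPKM in VE, a difference of 2.45 ± 0.25. Cdx2, the caudal factor of trophectoderm, measured 6.01, 7.98 and 18.0 FPKM in EXE and 1.83, 0.769, 3.72 and 1.36 FPKM in VE. Its EXE knockout 2 level was more than that of the other EXE libraries, and its difference was 1.84 ± 0.37 (adjusted p = 0.00366). Klf5 and Tead4 differed least among the called members, by 0.93 ± 0.25 and 0.96 ± 0.24, and lost the call in 6 and 5 of the alternative settings. Sox2, needed by both trophoblast and epiblast stem cells, measured 12.3, 13.3 and 5.30 FPKM in EXE and at most 0.192 FPKM in VE. In EXE knockout 1, the library with the least Pou5f1, Sox2 was the highest of the 3. Msx2 went the other way, with 3.35, 3.43 and 2.74 FPKM in EXE and 39.2, 30.9, 50.9 and 40.9 FPKM in VE (difference 3.33 ± 0.22 in favour of VE). With EXE knockout 1 as the only EXE library, 6 of these factors were called higher in EXE.

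Genes of differentiating trophoblast were mostly below the filter. Of 20 listed genes 12 failed the filter, among them Gcm1, Tpbpa, Prl3d1, Syna and Synb, whose products mark labyrinth, spongiotrophoblast, giant cells and syncytium. 2 of the 8 tested were higher in EXE and 2 in VE, against 18.8% and 16.1% of all genes. Ldoc1, a retrotransposon-derived gene of placental endocrine cells, measured 36.1, 31.6 and 50.3 FPKM in EXE and was listed at 0 in 3 VE libraries. Cited1, a transcriptional coactivator of the placenta, was about an order of magnitude higher in VE, with 240.4, 226 and 163 FPKM in EXE and 2257, 2344, 2218 and 2205 FPKM in VE (difference 3.41 ± 0.19, adjusted p = 1.23e-06). Plac1, a placental membrane protein gene on the X chromosome, measured 31.6, 24.5 and 38.0 and 28.6, 75.7, 33.6 and 32.9 FPKM and was not called (-0.29 ± 0.32).

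Signalling genes were higher in one tissue or the other in nearly equal number. Of 34 listed genes of the BMP, FGF and NODAL pathways 31 were tested, 10 were higher in EXE and 9 in VE, against 18.8% and 16.1% of all genes. With EXE knockout 1 as the only EXE library these counts were 4 and 8. The ligand gene Bmp4 measured 95.9, 79.3 and 129.7 FPKM in EXE and 2.59, 1.32, 1.70 and 1.59 FPKM in VE, a difference of 5.19 ± 0.26 (SE, adjusted p = 6.11e-07). Bmp8b, a related ligand of EXE, measured 20.9, 27.9 and 26.1 FPKM in EXE and at most 0.0773 FPKM in VE. Bmp2, in contrast, was a VE gene, with 2.94, 2.81, 1.71 and 2.15 FPKM there and at most 0.0256 FPKM in EXE. The BMP target genes Id1 and Id3, inhibitors of helix-loop-helix factors, were higher in VE, the tissue with less Bmp4. Id1 measured 53.1, 36.9 and 52.7 FPKM in EXE and 379, 339.7, 384 and 464 FPKM in VE, and Id3 29.7, 7.41 and 20.05 and 418, 317, 357 and 396 FPKM. Id2 had the opposite pattern, with 619, 842 and 630.2 FPKM in EXE and 238, 194, 173 and 174 FPKM in VE (difference 1.85 ± 0.20), so the Id genes did not move as a group. Among FGF receptors, Fgfr2, which receives the FGF4 signal of the epiblast, measured 18.9, 24.8 and 18.8 FPKM in EXE and 0.629, 1.52, 1.42 and 0.7998 FPKM in VE, and Fgfr1 15.4, 16.5 and 9.33 and 2.12, 1.39, 2.01 and 1.58 FPKM. Fgfr3 was higher in VE, at 3.63, 8.23, 4.75 and 8.08 FPKM against at most 0.226 FPKM in EXE, and Fgfr4 was not called, at 4.72, 5.71 and 4.45 and 8.43, 7.398, 6.45 and 6.05 FPKM. Within each tissue the receptor genes with the highest levels were Fgfr2 and Fgfr1 in EXE and Fgfr4 and Fgfr3 in VE. For Fgfr4 this is a rank within VE and not a called difference between the tissues. The FGF feedback genes Dusp6 and Spry2 were higher in EXE by 2.08 ± 0.35 and 1.28 ± 0.33, while Spry4 and Etv4 were not called. Nodal measured 4.13, 0.0750 and 1.23 FPKM in EXE and 10.7, 8.203, 16.5 and 8.29 FPKM in VE, and Cfc1, its co-receptor Cryptic, 6.34, 0 and 0 and 76.9, 68.9, 63.2 and 86.6 FPKM. The EXE control had the highest EXE value of both. Pcsk6, the protease that activates NODAL precursor, was higher in EXE by 3.58 ± 0.27, and the activin receptor gene Acvr2b by 2.16 ± 0.31. Tdgf1 was also called higher in EXE (2.69 ± 0.70, adjusted p = 0.0150), but its level followed Pou5f1 across the EXE libraries, and it failed the filter without the 2 that held Pou5f1.

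WNT ligands were found in both tissues and secreted WNT antagonists were higher in VE. Of 17 members tested out of 24, 4 were higher in EXE and 9 in VE, against 18.8% and 16.1% of all genes. The EXE count is near its share. Wnt7b measured 79.7, 81.8 and 47.7 FPKM in EXE and 0.0234, 0.0129, 0.0944 and 0.147 FPKM in VE, and Wnt6 36.5, 30.7 and 27.8 FPKM in EXE and at most 0.0907 FPKM in VE. They differed by 6.02 ± 0.27 and 5.00 ± 0.23. The other ligands tested, Wnt3 and Wnt11, were higher in VE by 2.68 ± 0.26 and 0.88 ± 0.28, with Wnt3 at 8.41, 10.2, 7.22 and 8.07 FPKM there. The secreted antagonists Dkk1, Sfrp5 and Sfrp1 were all higher in VE. Dkk1 measured 0.141, 0 and 0.0876 FPKM in EXE and 74.9, 25.3, 65.3 and 54.1 FPKM in VE, a difference of 5.63 ± 0.35. Tcf7l1, the repressor among the TCF factors, was higher in EXE by 2.64 ± 0.27 and Tcf7l2 in VE by 1.57 ± 0.27, while Tcf7 was not called and Lef1 failed the filter. Axin2, a general target of the pathway, measured 2.02, 1.13 and 0.622 FPKM in EXE and 1.45, 3.16, 1.26 and 2.83 FPKM in VE and was not called. In the hedgehog pathway the ligand gene Ihh measured 20.5, 17.2, 13.8 and 13.3 FPKM in VE and at most 0.188 FPKM in EXE (difference 3.88 ± 0.24), and its receptor genes Ptch1 and Smo were not called. The other 8 of 11 listed members failed the filter.

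**Figure D3:**
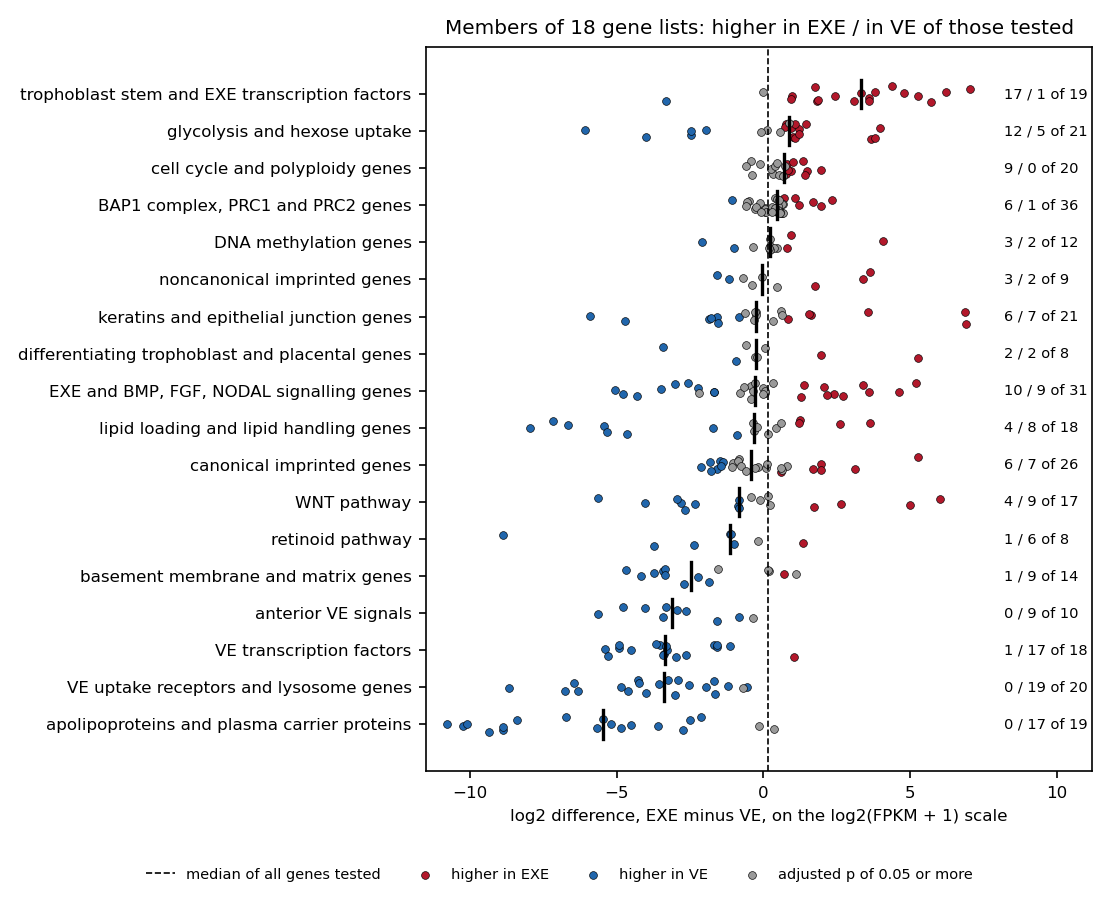
Log2 difference (EXE minus VE, on the log2(FPKM + 1) scale) of each tested member of the 18 lists with at least 8 tested members, in order of their medians (black bars), with the median of all genes tested, 0.17, as a dashed line. Numbers at the right give members higher in EXE, higher in VE and tested, from 17 / 1 of 19 for trophoblast transcription factors to 0 / 17 of 19 for apolipoproteins.

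Transcription factors of the endoderm were nearly silent in EXE. Of 18 tested factors of 22 listed, 17 were higher in VE, and the sum over the list was 245 to 353 FPKM in VE and 5.50 to 8.10 FPKM in EXE. Hnf4a, the nuclear receptor that controls apolipoprotein genes, measured 0, 0.00882 and 0.0163 FPKM in EXE and 20.5, 48.3, 22.3 and 36.6 FPKM in VE (difference 4.93 ± 0.33, adjusted p = 3.49e-06), and the zinc finger factor Gata4 0.413, 0.0620 and 0.0240 and 29.6, 29.2, 35.9 and 41.3 FPKM. Sox17, an endoderm factor of the SRY family, measured 82.5, 15.7, 73.5 and 32.4 FPKM in VE and at most 0.0841 FPKM in EXE. Its VE values were widely spread, with both replicate 1 libraries above both replicate 2 libraries. The pioneer factor gene Foxa2 and the primitive endoderm factor gene Gata6 measured 24.9, 19.2, 27.4 and 20.2 and 7.28, 14.4, 14.8 and 17.5 FPKM in VE. The exception was Cdx1, a caudal factor with low values (1.42, 1.35 and 0.487 FPKM in EXE, 0, 0.0103, 0.0310 and 0 FPKM in VE), which was called higher in EXE (1.03 ± 0.23). Without the EXE control no member was called higher in EXE. Of 12 listed genes of the anterior VE 10 were tested, and 9 of these were higher in VE, with a summed level of 66.9 to 217 FPKM there and 1.37 to 4.16 FPKM in EXE. Cer1, the NODAL, BMP and WNT antagonist cerberus, measured 35.0, 12.9, 59.1 and 17.0 FPKM in VE and at most 0.0288 FPKM in EXE, and the homeobox gene Hhex 11.3, 7.38, 13.0 and 10.1 and at most 0.186 FPKM. Otx2, which the epiblast expresses at 73.5, 73.0, 56.1 and 89.8 FPKM, measured 1.04, 0.0233 and 1.53 FPKM in EXE and 4.85, 1.29, 7.19 and 4.72 FPKM in VE. Its EXE values were highest in the libraries with Pou5f1, the groups overlapped, and its call (1.59 ± 0.45 in favour of VE, adjusted p = 0.0222) was lost in 5 alternative settings. Lefty1, a NODAL antagonist, was not called, with 0.232, 0.0280 and 1.55 FPKM in EXE and 1.12, 0.0415, 3.67 and 0 FPKM in VE, so that it was at or near 0 in both replicate 2 VE libraries.

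Genes for lipoproteins and plasma carrier proteins made the widest gap between the tissues. Of 24 listed genes 19 were tested, 17 were higher in VE and 0 in EXE, and the median difference was 5.46 in favour of VE. Summed FPKM over the list was 18637 to 28815 in VE and 409 to 818 in EXE, and with EXE knockout 1 as the only EXE library the count was still 17. The fibrinogen chain genes Fga, Fgb and Fgg measured 5.12, 53.4 and 27.0 FPKM on average in VE and at most 0.136 FPKM in any EXE library. Apob, the structural protein of chylomicrons and very low density lipoprotein, measured 9.31, 24.8, 39.8 and 45.8 FPKM in VE and at most 0.0268 FPKM in EXE. Alb, Ahsg and Apoh, later products of the liver, failed the filter. Apolipoprotein genes that are neighbours did not share one pattern. Apoe, Apoc1 and Apoc2 lie within one stretch of chromosome 7 (19671579 to 19699188). Apoe measured 410.4, 315 and 197 FPKM in EXE and 9654, 1906, 6862 and 1595 FPKM in VE, a difference of 3.59 ± 0.60 (adjusted p = 0.00133). Apoc1, which lies between them, measured 364, 293 and 202 FPKM in EXE and 401, 599, 227 and 254 FPKM in VE. The groups overlapped and the log2 difference of -0.16 ± 0.23 was not called, while Apoc2 differed most of the 3. Clusterin (Clu), an extracellular chaperone, was the other member that was not called (0.37 ± 0.38).

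Genes for uptake and lysosomal digestion of proteins were higher in VE almost without exception, 19 of 20. Cubilin (Cubn) and its partner amnionless (Amn) form the receptor that takes up maternal proteins. Cubn measured 0.280, 0.0255 and 0.0225 FPKM in EXE and 53.6, 197, 123 and 143 FPKM in VE, and Amn 6.76, 4.90 and 3.92 and 567, 569.6, 631 and 462 FPKM. They differed by 6.75 ± 0.40 and 6.47 ± 0.20. The partner receptor megalin (Lrp2) measured 12.9, 33.9, 24.1 and 36.7 FPKM in VE and at most 0.210 FPKM in EXE. Lysosomal proteases followed, among them Ctsh with 11.9, 9.31 and 5.66 FPKM in EXE and 960.3, 600.0, 988 and 669.8 FPKM in VE (difference 6.32 ± 0.28). Cathepsin genes differed in how much EXE held. Ctsl measured 130.1, 114 and 107 FPKM in EXE and 2568, 1711, 2610.4 and 1192 FPKM in VE, Ctsz 204, 249 and 244 and 2319, 1981, 2422 and 1969 FPKM, and Ctsd 58.1, 58.7 and 58.5 and 70.8, 75.7, 108 and 89.5 FPKM. Ctsd differed by only 0.57 ± 0.18 (adjusted p = 0.0349) and lost the call in 13 alternative settings. Of the 8 cathepsin genes tested, a family chosen after its values were seen, 7 were higher in VE and 1 in EXE. Cd63, a tetraspanin of late endosomes, measured 1217, 1012 and 838 and 2408, 2804, 2057 and 2547 FPKM, and Rab32 was the member not called (-0.70 ± 0.31). The brush border genes Pdzk1 and Vil1 belonged to the same epithelium, with 88.7, 59.9, 112 and 66.9 and 31.0, 39.7, 30.2 and 29.4 FPKM in VE and at most 0.795 and 0.423 FPKM in EXE.

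Of 18 tested genes of lipid loading and handling 8 were higher in VE and 4 in EXE, where the shares of all genes were 16.1% and 18.8%. The EXE count is near its share. Mttp, which loads lipid onto apolipoprotein B, measured 0.811, 1.151 and 0.619 FPKM in EXE and 50.4, 103, 94.6 and 74.4 FPKM in VE (difference 5.44 ± 0.28). Soat2, which esterifies cholesterol, measured 114, 94.0, 153 and 88.9 FPKM in VE and at most 0.217 FPKM in EXE. Pla2g12b, needed for lipoprotein secretion, measured 334, 254, 329 and 273 FPKM in VE and at most 0.454 FPKM in EXE. Fatty acid binding protein genes went both ways. Fabp1 was listed at 0 in all 3 EXE libraries and measured 98.7, 386, 68.9 and 200.4 FPKM in VE. Fabp5 measured 224, 146 and 196 FPKM in EXE and 22.0, 15.7, 12.1 and 12.6 FPKM in VE (difference 3.61 ± 0.20 in favour of EXE), and Fabp3 1552, 1259 and 979.9 and 513, 385, 471 and 767 FPKM (1.25 ± 0.27). Srebf2, a regulator of sterol synthesis, was not called, nor were Dgat2 and Plin2, genes of triglyceride storage. Without the EXE control, 2 members were higher in EXE.

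Of 14 tested basement membrane genes 9 were higher in VE and 1 in EXE, against 16.1% and 18.8% of all genes. The collagen IV genes Col4a1 and Col4a2, which start from a shared stretch of chromosome 8, measured 54.0, 13.4, 25.4 and 16.1 and 23.8, 34.2, 31.4 and 40.3 FPKM in VE and at most 0.471 and 0.450 FPKM in EXE. The laminin chain gene Lama1 measured 5.17, 6.86, 20.3 and 9.49 FPKM in VE, with the highest value in VE knockout 1. Sparc, a collagen-binding matrix protein, measured 37.6, 31.5 and 43.1 FPKM in EXE and 471, 406, 606 and 494 FPKM in VE. Col4a1, Lama1 and Sparc are also on the list of parietal endoderm markers. Of its 7 tested members 5 were higher in VE and 1 in EXE, against the same shares of all genes. The part of parietal endoderm in these values was not tested. The 2 smallest differences of the basement membrane list, among genes with a mean of 5 FPKM or more, were in receptor genes. They were named for that reason and do not stand for matrix receptors as a class. Itgb1 measured 35.1, 35.4 and 34.0 FPKM in EXE and 19.3, 34.5, 37.9 and 34.3 FPKM in VE (0.14 ± 0.24), and dystroglycan (Dag1), at 16.4, 16.5 and 6.67 and 2.46, 7.61, 4.51 and 7.56 FPKM, was not called. Among 21 tested keratin and junction genes 6 were higher in EXE and 7 in VE, against 18.8% and 16.1% of all genes. The EXE count was 3 without the EXE control and 1 with EXE knockout 1 as the only EXE library. Both tissues are simple epithelia, and Krt8 and Krt18, the keratins of such epithelia, were not called, with Krt18 at 695, 607 and 536 FPKM in EXE and 913, 482, 911 and 665 FPKM in VE. Krt19 was higher in EXE, at 286, 192 and 172 against 19.999, 4.97, 47.5 and 12.8 FPKM. E-cadherin (Cdh1) measured 94.1, 92.9 and 44.0 FPKM in EXE and 13.1, 41.2, 19.8 and 33.8 FPKM in VE and was called higher in EXE (1.55 ± 0.41, adjusted p = 0.0166), a call lost in 6 alternative settings. Cdh2, N-cadherin, was higher in VE at up to 4.04 FPKM. Claudins went both ways, as Cldn6 was higher in VE with 169.8, 138 and 273 FPKM in EXE and 814, 522, 751 and 623 FPKM in VE.

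Of 8 tested retinoid genes 6 were higher in VE, led by Rbp4, and 1 in EXE, against 16.1% and 18.8% of all genes. Cyp26a1, which degrades retinoic acid, was abundant in both tissues, with 115, 112 and 182 FPKM in EXE and 247, 153, 483 and 279 FPKM in VE (1.12 ± 0.29 in favour of VE, adjusted p = 0.0147), and lost the call in 4 alternative settings. Rdh10, which makes retinal from retinol, measured 2.27, 2.42 and 1.55 FPKM in EXE and 9.51, 20.3, 12.7 and 18.4 FPKM in VE, whereas the genes for the next step, Aldh1a1, Aldh1a2 and Aldh1a3, failed the filter. Rxra, a retinoid X receptor gene, was the member higher in EXE, with 5.52, 4.00 and 4.52 FPKM there and 0.671, 1.49, 1.23 and 1.64 FPKM in VE (1.34 ± 0.26, adjusted p = 0.00334), a call lost without the EXE control.

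The tissues differed in which isozyme genes of energy metabolism had the higher transcript levels. Of 21 genes of glycolysis and hexose uptake, all of which were tested, 12 were higher in EXE and 5 in VE. The shares of all genes were 18.8% and 16.1%, and the VE count is not far from its share. The median log2 difference of the list was 0.88, against 0.17 for all genes tested. Hexokinase 1 (Hk1) measured 19.9, 18.7 and 12.0 FPKM in EXE and 0.0975, 0.0527, 0.284 and 0.118 FPKM in VE, and the platelet phosphofructokinase gene Pfkp 74.3, 57.3 and 90.9 and 5.82, 4.15, 7.56 and 2.87 FPKM. They differed by 3.96 ± 0.26 and 3.67 ± 0.31 in favour of EXE. Genes of the liver and intestinal forms went the other way. The glucose carrier gene Slc2a2 (GLUT2) measured at most 0.0132 FPKM in EXE and 11.1, 36.3, 14.5 and 10.4 FPKM in VE, and the liver pyruvate kinase gene Pklr at most 0.0568 and 3.48, 4.83, 3.32 and 1.603 FPKM. Of the carriers for glucose and for lactate, one of each pair was higher in each tissue. Slc2a1 (GLUT1) measured 250.5, 213 and 159.5 FPKM in EXE and 79.7, 68.9, 83.3 and 71.8 FPKM in VE, and Slc2a3 (GLUT3) 98.4, 47.0 and 58.2 and 198, 571, 372 and 447 FPKM. The lactate exporter Slc16a3 (MCT4) measured 113, 109.9 and 109 FPKM in EXE and 9.90, 4.99, 11.04 and 4.13 FPKM in VE, and Slc16a1 (MCT1) 61.6, 67.0 and 67.5 and 239, 428, 423 and 384 FPKM. Slc16a3 differed by 3.82 ± 0.32 in favour of EXE and Slc16a1 by 2.48 ± 0.22 in favour of VE. The enzymes common to most tissues differed less, from 0.73 for Ldha to 1.20 for Pkm among those called, and Pgam1, Eno1, Hk2 and Ldhb were not called. Of the 12 genes higher in EXE, 5 were called without the EXE control and 3 with EXE knockout 1 alone, while 5 and 4 of those higher in VE were.

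Cell cycle genes were called in one direction, 9 of 20 higher in EXE and 0 in VE, against 18.8% and 16.1% of all genes. Their median log2 difference was 0.70, against 0.17 for all genes tested. Cyclin E1 (Ccne1), which drives DNA synthesis, measured 157, 196 and 219 FPKM in EXE and 64.3, 57.4, 75.3 and 63.2 FPKM in VE (1.49 ± 0.17, adjusted p = 1.45e-04). Myc measured 37.2, 42.0 and 63.0 and 22.7, 13.0, 22.7 and 10.7 FPKM, while Mycn measured 25.2, 34.9 and 31.6 and 28.9, 28.8, 32.1 and 38.1 FPKM and was not called. Cdkn1c (p57), an inhibitor of cyclin-dependent kinases, was itself higher in EXE, with 75.1, 65.1 and 52.1 FPKM against 20.4, 15.9, 9.92 and 20.7 FPKM in VE, so the list did not hold only genes that promote division. Ccnd1 is an epiblast gene here, at 46.5, 43.1, 57.6 and 24.3 FPKM in epiblast against 3.45, 1.72 and 2.65 FPKM in EXE. Without the EXE control 5 members were higher in EXE, and the proliferation marker Mki67 was not called.

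**Figure D4:**
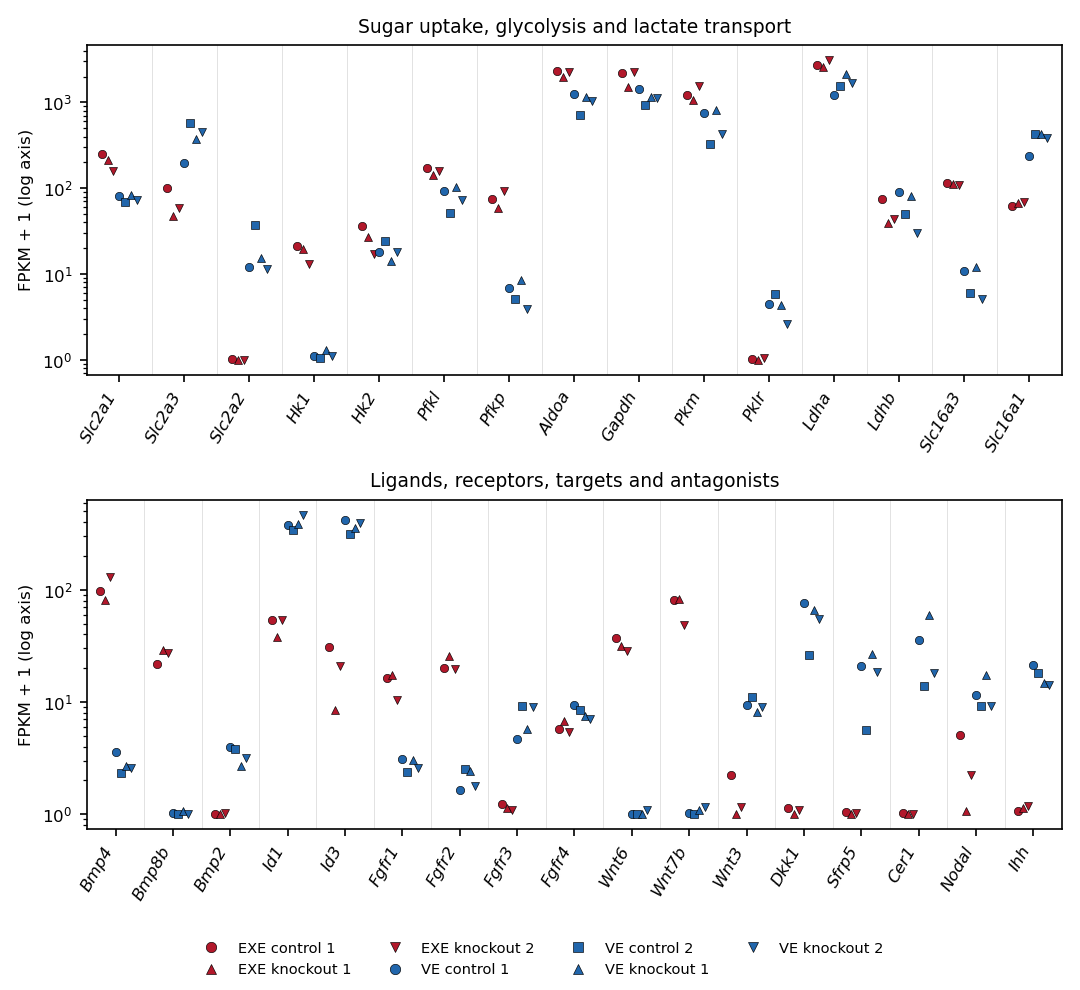
FPKM + 1 on a log axis in each EXE (red) and VE (blue) library for genes of glucose uptake, glycolysis and lactate transport (above) and for ligands, receptors, targets and antagonists (below), with symbols by genotype and replicate. Slc16a3 is higher in every EXE library and Slc16a1 in every VE library, and the BMP targets Id1 and Id3 are higher in VE although Bmp4 is higher in EXE.

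Genes of the BAP1 and Polycomb complexes were mostly not called. Of 40 listed members 36 were tested, 6 were higher in EXE and 1 in VE. Against 18.8% and 16.1% of all genes, the EXE count is near its share and the VE count is below its share. Jarid2, a cofactor that recruits Polycomb repressive complex 2, measured 24.0, 27.1 and 13.3 FPKM in EXE and 1.71, 3.89, 3.16 and 4.84 FPKM in VE (difference 2.33 ± 0.34, adjusted p = 6.37e-04). Cbx6, a chromodomain subunit of canonical Polycomb repressive complex 1, measured 3.70, 4.42 and 2.24 and 0.00636, 0.219, 0.0402 and 0.219 FPKM, and Phf19, an accessory subunit of the other complex, 6.99, 4.75 and 6.21 and 1.01, 0.974, 1.11 and 1.55 FPKM. Pcgf5, a subunit of variant Polycomb repressive complex 1, was the member higher in VE, at 46.7, 47.3 and 55.6 FPKM in EXE and 133, 92.4, 141 and 73.4 FPKM in VE (1.08 ± 0.26, adjusted p = 0.00950), and lost the call in 4 alternative settings. The catalytic genes Ezh2, Ezh1, Rnf2 and Ring1 and the core genes Eed and Suz12 were not called. Without the EXE control 3 members were higher in EXE, and with the replicate 1 libraries alone 12. DNA methylation genes differed most at Dnmt3l, the cofactor of the de novo methylases, with 37.0, 32.5 and 41.6 FPKM in EXE and 0.201, 0.348, 4.62 and 0.843 FPKM in VE (4.09 ± 0.42). Dnmt3a measured 3.93, 4.33 and 8.32 and 8.77, 9.11, 16.9 and 10.4 FPKM (1.02 ± 0.28 in favour of VE), far below its 69.8, 72.9, 71.6 and 206 FPKM in epiblast. Dnmt3b, Dnmt1 and the Tet genes were not called. Dppa3, which shields the maternal genome from demethylation, was low, with at most 0.483 FPKM in EXE and 1.36, 3.22, 9.13 and 4.17 FPKM in VE.

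Imprinted genes, which are expressed from one parental allele, are reported as totals of both alleles. Of 9 tested genes with imprinting that depends on histone methylation, 3 were higher in EXE and 2 in VE, against 18.8% and 16.1% of all genes, and the VE count was 1 without the EXE control. Sfmbt2, a Polycomb-related gene of trophoblast, measured 32.1, 41.0 and 31.2 FPKM in EXE and 4.80, 13.3, 9.41 and 11.8 FPKM in VE, the amino acid carrier gene Slc38a4 39.3, 45.2 and 63.4 and 1.76, 4.45, 4.13 and 1.92 FPKM, and Rbms1 54.1, 53.3 and 80.5 and 6.46, 3.84, 6.77 and 3.21 FPKM. All 3 were higher in every EXE library. Gab1, Smoc1, Jade1 and Xist were not called. Xist, the RNA that silences an X chromosome, measured 0.549, 2.55 and 0.166 FPKM in EXE and 0.0529, 2.00, 1.502 and 0.490 FPKM in VE and was highest in the 3 libraries without Y-linked transcripts. Of 26 tested genes with canonical imprinting 6 were higher in EXE and 7 in VE, not far from the shares of all genes. Maternally expressed genes of one imprinted region of chromosome 7 were among those higher in EXE. Phlda2, a brake on placental growth, measured 1376, 1242 and 950.2 FPKM in EXE and 385, 351, 208 and 359 FPKM in VE (1.95 ± 0.23), and Cdkn1c and Ascl2 lie in the same region. The region did not move as a whole. Slc22a18, which also lies there, was not called, with 4.82, 5.64 and 5.50 FPKM in EXE and 5.45, 5.50, 2.85 and 6.21 FPKM in VE. H19 and Igf2, of the adjoining domain, were not called, with H19 at 723, 696 and 239 FPKM in EXE and 816, 1639.8, 735 and 1308 FPKM in VE and Igf2 at 51.4, 45.1 and 21.1 and 16.9, 50.3, 10.2 and 28.3 FPKM. For Igf2, 64.5% of its exons overlap another gene model. The transcripts of the Dlk1 to Dio3 region were called higher in VE, among them Meg3, Rian, Mirg and Dlk1. Meg3 measured 55.3, 58.5 and 25.5 FPKM in EXE and 129.6, 184, 94.5 and 129.7 FPKM in VE (1.48 ± 0.29). Dlk1 measured 0.723, 1.53 and 2.90 FPKM in EXE and 20.3, 6.66, 7.08 and 2.40 FPKM in VE. For Dlk1 the groups overlapped and the limma adjusted p was 0.0449. Sgce was higher in VE by 2.14 ± 0.24, while its neighbour Peg10 was not called (-0.59 ± 0.35). Snrpn, at 68.8, 45.0 and 109 FPKM in EXE and 6.55, 5.20, 13.3 and 4.93 FPKM in VE, was highest in the EXE libraries with Pou5f1, and its epiblast levels were 445, 878, 252 and 639.7 FPKM. With values centred on library medians, 11 canonical imprinted genes were higher in VE, against 3 without the EXE control and 2 with EXE knockout 1 as the only EXE library.

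Gene families chosen by symbol after the values were seen are given by their counts, to be read against 18.8% of all genes higher in EXE and 16.1% higher in VE. The X-linked Rhox homeobox genes, reproductive factors in a cluster, had 10 of 12 tested members higher in EXE and 1 in VE. Rhox5 was among the most abundant transcripts of EXE, at 3954, 4645 and 3606 FPKM against 1881, 2129, 1144 and 2197 FPKM in VE (1.21 ± 0.26), whereas Rhox6 was higher in VE, at 24.6, 23.7 and 18.9 and 82.1, 182, 70.7 and 149.6 FPKM. Of 8 annexin genes, which encode calcium-dependent membrane-binding proteins, 5 were higher in EXE, with Anxa2 at 212, 133 and 161 and 2.96, 0.544, 16.0 and 0.806 FPKM and Anxa5 at 157, 183 and 230.4 and 3.21, 0.252, 7.46 and 1.80 FPKM. VE knockout 1 had the highest VE value of both. Solute carrier genes were higher in VE in 58 and in EXE in 39 of 181 cases, the latter near the share of all genes. Single genes with wide gaps included the water channel Aqp8, at 206, 229, 157 and 257 FPKM in VE and at most 0.0478 FPKM in EXE, the carbonic anhydrase Car7, at 312, 218, 262 and 185 and at most 0.511 FPKM, and the glypican Gpc3, at 352, 321, 457 and 245 and at most 2.52 FPKM. On the EXE side, Plaur, the urokinase receptor, measured 73.4, 77.2 and 88.5 FPKM against 1.18, 0.124, 5.78 and 0.737 FPKM in VE, and Sfn, the epithelial 14-3-3 sigma, 174, 208 and 159.8 against 4.70, 1.92, 5.42 and 2.40 FPKM.

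Whether the tissue difference depended on the maternal genotype was tested as an interaction, the EXE minus VE difference in knockouts minus that in controls. The single EXE control library was assumed to vary like the other groups. No gene was called by limma at an adjusted p under 0.05 (0.0%), and 233 of 12457 (1.87%) had an unadjusted p under 0.05. The smallest adjusted p was 0.0744, for the linker histone gene H1f10 (interaction -4.62), singled out after its values were seen, and a predicted gene. Among genes described above, Cfc1 led, with an interaction of -2.90 ± 0.47 (SE, unadjusted p = 2.22e-04, adjusted p = 0.691). It measured 6.34 FPKM in the EXE control and was listed at 0 in both EXE knockouts, against 76.9, 68.9, 63.2 and 86.6 FPKM in VE. Fgf8, a ligand of streak and VE, had an interaction of -5.00 ± 1.02 (adjusted p = 1.00), with 25.7, 0 and 2.84 FPKM in EXE and 22.2, 9.13, 44.4 and 27.5 FPKM in VE. In the epiblast libraries Fgf8 measured 49.3, 56.6, 61.1 and 6.74 FPKM. Both interactions rest on the 1 EXE control. Apoc2, Ttr and some other VE transcripts were highest among EXE libraries in that library, and so was the epiblast gene Pou5f1, while Srgn and Ihh were lowest there. The part of those transcripts in these values was not tested. For the tissue markers the interaction was -0.07 ± 0.48 for Elf5 and -0.56 ± 0.61 for Ttr, and for Bap1 -0.22 ± 0.43. Grb10, an imprinted growth regulator, measured 33.3, 31.4 and 13.6 FPKM in EXE and 2.01, 1.58, 16.3 and 14.5 FPKM in VE, an interaction of -3.21 ± 0.64 (adjusted p = 1.00). Its tissue difference (1.69 ± 0.58 in favour of EXE, adjusted p = 0.0481) was lost in 15 alternative settings.

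Within VE, the libraries of replicate 1 and of replicate 2 differed in the same genes in both genotypes, by values and without a test. Apoe measured 9654 and 6862 FPKM in replicate 1 against 1906 and 1595 FPKM in replicate 2, and Cer1 35.0 and 59.1 against 12.9 and 17.0 FPKM. Apoa2, another protein of high-density lipoprotein, went the other way, with 50.9 and 57.4 against 534 and 198 FPKM, as did Fabp1, Spink1 and Hnf4a. The labels do not say what the numbers stand for. Genes for signals of the anterior VE (Cer1, Dkk1) were lowest in VE control 2, which had the most Apoc2, Fabp1 and Cubn. In VE control 1 short genes sat above the mean of the 4 VE libraries by a median of 0.12 log2 units. Long genes sat below it by 0.14. With each library set against the mean of its own tissue, this was the widest such gap of the 7.

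**Figure D5:**
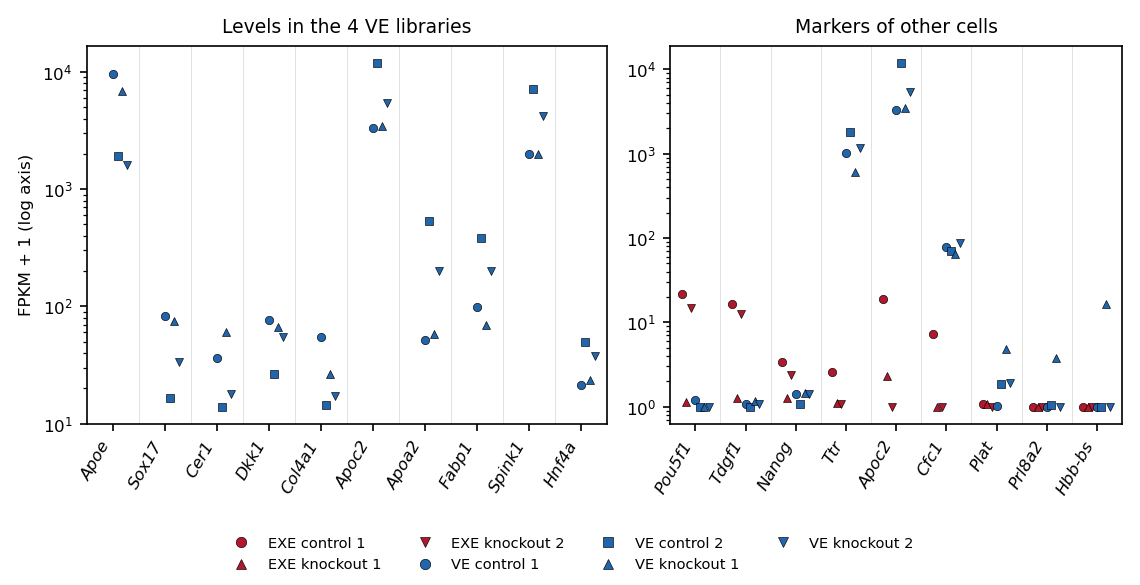
FPKM + 1 on a log axis for genes in the 4 VE libraries (left) and for markers of epiblast, VE, parietal endoderm, decidua and blood in all 7 libraries (right), with red for EXE, blue for VE and symbols by genotype and replicate. Apoe is higher and Apoa2 lower in both replicate 1 VE libraries, Pou5f1 reaches 20.5 and 13.8 FPKM in EXE control 1 and EXE knockout 2, and Hbb-bs is seen in VE knockout 1.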

How the data were processed

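RNA was measured by poly(A) RNA-seq (SMART-Seq mRNA amplification with Nextera XT libraries, per the labels' protocols). The authors deposited the FPKM table used here, of 55401 genes in the 11 poly(A) libraries. The submitters' processing notes name Trim Galore 0.6.6, STAR 2.7.9, StringTie 2.1.7 and the build mm10 without their roles. FPKM hold no read numbers, so depth and counting error are unknown, and strand use in counting is not given in the sources used here.

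From the deposited FPKM, 1 value below 0 was set to 0, values were taken as log2(FPKM + 1), and genes were kept that reached 1 FPKM in 2 or more of the 7 libraries. limma 3.58.1 (R 4.3.3) fitted tissue and genotype with an intensity trend, and p-values were Benjamini-Hochberg adjusted over all genes tested, with a threshold of 0.05 for a call. Log2 differences understate the change of low genes. Genes were placed with GENCODE M21 (GRCm38), and promoters came from RefSeq (GRCm38.p6). The fit was tested on simulated data. Tables and figures used Python 3.11.15, pandas 2.3.3 and matplotlib 3.10.9.

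The members and lists were chosen with earlier results of these data known. Genes named by rule were the 10 with the largest difference in each direction (called, groups not overlapping, mean level of 5 FPKM or more on the higher side, no predicted models), the 4 largest and 2 smallest differences of each list (the latter where the mean reached 5 FPKM), and Elf5, Ttr and Bap1. Chosen after their values were seen were Acvr2b, Ahsg, Alb, Aldh1a1, Aldh1a2, Aldh1a3, Anxa2, Anxa5, Apoa2, Apob, Apoe, Apoh, Aqp8, Axin2, Bmp2, Car7, Cdh1, Cdh2, Cdx1, Cldn6, Ctsl, Ctsz, Dlk1, Dnmt1, Dusp6, Eed, Eno1, Ets2, Ezh1, Ezh2, Fabp3, Fabp5, Fga, Fgb, Fgf8, Fgfr1, Fgfr2, Fgfr3, Fgfr4, Fgg, Foxa2, Gata6, Gcm1, Gpc3, Grb10, H19, Hbb-bs, Hk2, Id1, Id2, Id3, Igf2, Jade1, Krt19, Ldha, Lef1, Lefty1, Lrp2, Meg3, Mirg, Mki67, Msx2, Nodal, Pcgf5, Pcsk6, Peg10, Pfkp, Pklr, Pkm, Plat, Plaur, Prl2c2, Prl3d1, Prl8a2, Rab32, Rhox5, Rhox6, Rian, Ring1, Rnf2, Sfn, Slc16a1, Slc2a1, Slc2a3, Spry2, Spry4, Srebf2, Suz12, Syna, Synb, Tcf7l1, Tead4, Tpbpa, Wnt3 and Xist, the Y-linked genes and the gene families.

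Gng2, Pdzk1, Ctsd, Ctsl, Sox17, Cfc1, Snrpn, Fabp3, Krt8, Pgam1, Cdkn1c, Ldhb, Lefty1, Rhox6, Dppa3 and Cryab share sequence with other gene models. Apoc2, Apoa4 and Igf2 do as well, so the own signal of all these genes is uncertain. The list is not complete. A few genes are not reported here. Alternatives changed the pseudocount, filter, scaling, trend, libraries and blocks. The replicate numbers are not said to pair libraries, so no block was used.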

Additional observations from a re-analysis of the deposited data

Results flagged for a closer look

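In 4 of 130 named genes 1 VE library lay apart from the other VE libraries, where chance alone gives about 1 in 20. VE knockout 1 was low for Phlda2, at 208 FPKM against 385, 351 and 359 FPKM. VE control 1 was low for the integrin gene Itgb1, at 19.3 FPKM. VE control 2 was high for Plac1, at 75.7 FPKM. For the repressor gene Snai1 the VE libraries measured 1.22, 1.08, 7.69 and 1.61 FPKM, with 7.69 FPKM in VE knockout 1 apart from the others.

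Of the genes picked by rule, Cryab and Etv4 were flagged for tissue differences in opposite directions in the genotypes. Fgf8, chosen after its values were seen, also had such differences (limma interaction -5.00 ± 1.02, adjusted p = 1.00). These are not all such genes. Krt8, also picked by rule, measured 207, 160 and 130 FPKM in EXE and 217, 137, 254 and 186 FPKM in VE, an interaction of -0.85. The small heat shock protein gene Cryab measured 1.85, 0.975 and 1.53 FPKM in EXE and 1.28, 1.76, 21.6 and 3.59 FPKM in VE, an interaction of -2.37 (limma, unadjusted p = 0.0481, adjusted p = 1.00), and VE knockout 1, the library with globin transcripts, held its highest VE value. Cryab also carries most of the decidual marker sum of that library. The ETS factor gene Etv4 measured 7.64, 4.66 and 5.13 FPKM in EXE and 6.57, 3.71, 6.95 and 5.41 FPKM in VE, an interaction of -0.81 (limma, unadjusted p = 0.190, adjusted p = 1.00). None of these genes passed the adjusted threshold for the interaction.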

How the results depend on the processing

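In no alternative was a gene called in the opposite direction, and of 161 called genes that the rule picks or that were chosen later, 39 lost the call in at least 1 setting while 15 others gained one. The counts higher in EXE and in VE (2345 and 2002) moved most with the EXE libraries: 340 and 863 with the 2 EXE libraries with Pou5f1 left out, an alternative chosen after seeing the data, and 1243 in EXE with the knockout libraries alone. Leaving out 1 library gave 1098 to 2390 in EXE and 1323 to 2047 in VE, both lowest without the EXE control. A mean of at least 5 FPKM left 1384 and 1198, by testing fewer genes, and a difference of at least 1 log2 unit 1394 in EXE.

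The replicate block of genotype and number gave 1796 and 1702, the number as an additive term 1986 and 1850, and a crossed pairing 2888 and 2224, as same-numbered knockout libraries of the tissues deviated oppositely (correlation -0.37). The replicate 1 libraries alone, also chosen after seeing the data, gave 3305 and 2271.

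The interaction called 0 genes, but 2 with a pseudocount of 0.1 (Cfc1 and H1f10), 1 with the additive replicate block and 0 to 1 with 1 library left out (Gm44805 without VE control 2). Without a filter it called 2365, of which 2351 fail the filter, with a median highest level of 0.116 FPKM. It could not be fitted without the EXE control. Depth was not known, so low values carry an unknown counting error.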

Other observations

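Further gene families, chosen by symbol after their values were seen, are given by their counts, to be read against 18.8% of all genes higher in EXE and 16.1% higher in VE. All 6 collagen genes tested were higher in VE, as were 8 of 15 tetraspanin genes, of which 3 were higher in EXE. Of 11 serpin genes, which encode protease inhibitors, 6 were higher in VE and 3 in EXE. Of 4 aquaporin genes 3 were higher in VE and 1 in EXE. Connexin genes (3 and 3 of 7) and genes of S100 calcium-binding proteins (3 and 3 of 10) were higher in EXE and in VE in equal number.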
